A study of Mus musculus with 14 samples.

Results

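Glutathione peroxidases and targets of the transcription factor NRF2 were followed in whole mouse uterus by RNA-seq. The set was chosen by gene symbol, with earlier results of these data known, and holds 10 genes of the 31274 in the deposited expression table. The 6 glutathione peroxidases are Gpx1, Gpx2, Gpx3, Gpx4, Gpx7 and Gpx8, and the 4 NRF2 targets are Nqo1, Gclc, Gclm and Txnrd1. All 10 were found in the table, and all 10 were among the 14278 genes that passed the filter on low values. The study asked how gene expression changes over the estrous cycle and with loss of HIF2A, the hypoxia-inducible factor subunit encoded by Epas1. The uteri came from ovary-intact, unexposed mice of the FVB/N strain at 2 months of age, and the 14 libraries fall into HIF2A cKO at estrus (n = 3), WT at estrus (n = 3), HIF2A cKO at diestrus (n = 4) and WT at diestrus (n = 4). The sources used here do not state which promoter drives the conditional deletion, which exons it removes, or whether a library holds a single uterus or a pool, so the p-values measure the spread between these libraries, which may be technical.

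Glutathione peroxidases reduce hydrogen peroxide or lipid hydroperoxides, most of them with glutathione as the electron donor. NRF2, encoded by Nfe2l2, is held in the cytoplasm and marked for destruction by KEAP1, and oxidants or electrophiles release it to switch on genes through antioxidant response elements. Its targets include the enzymes that make glutathione, the thioredoxin system and quinone reductase. Estrus follows the rise of estrogen in the cycle, and diestrus is a phase under progesterone.

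Gpx1, Gpx2, Gpx3, Gpx4 and Txnrd1 work with selenocysteine, an amino acid encoded by TGA, which is otherwise a stop codon. The coding sequence around that residue shows which of the 6 peroxidases are selenoproteins and how the family members differ, and it is given with that of Txnrd1, the selenoprotein among the NRF2 targets. The sequences come from GENCODE transcripts of the GRCm38 build, which is mm10, and are the reference strain's sequence, not read from these libraries. Each is written 5′ to 3′ on the coding strand, with 24 coding bases on either side of the codon where the reading frame allows. Capitals mark TGA read as selenocysteine, or the cysteine codon that stands at the matching place in Gpx7 and Gpx8.
Gpx1, chr9:108339451-108339453, plus strand, exon 1: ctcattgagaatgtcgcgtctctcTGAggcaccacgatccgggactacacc
Gpx2, chr12:76795256-76795258, minus strand, exon 1: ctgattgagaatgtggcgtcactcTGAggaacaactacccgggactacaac
Gpx3, chr11:54907256-54907258, plus strand, exon 2: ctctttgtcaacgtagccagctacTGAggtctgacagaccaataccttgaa
Gpx4, chr10:80054737-80054739, plus strand, exon 3: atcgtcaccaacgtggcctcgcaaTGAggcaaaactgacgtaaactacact
Gpx7, chr4:108403430-108403432, minus strand, exon 2: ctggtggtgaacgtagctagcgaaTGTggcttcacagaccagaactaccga
Gpx8, chr13:113045661-113045663, minus strand, exon 2: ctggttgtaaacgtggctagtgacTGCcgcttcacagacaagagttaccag
Txnrd1, chr10:82896037-82896039, plus strand, exon 14: ggagacatcctccagtctggctgcTGAggt
The coordinates and the exon are those of the codon in capitals, and the bases shown for Gpx3 run across an exon junction. The codon is number 47 of 201 in Gpx1 and number 498 of 499 in Txnrd1, where selenocysteine stands just before the last residue. Over the 51 bases shown, Gpx1 and Gpx2 were the closest pair, with 43 identical bases or 84.3%, and Gpx7 and Gpx8 followed with 39 or 76.5%. The lowest identity, 47.1%, was that of Gpx3 with Gpx1 and with Gpx2.

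Expression is given in FPKM, fragments scaled for transcript length and for the mapped fragments of the library, as the authors deposited it. Differences between groups are on the log2(FPKM + 1) scale from limma fitted over all 14278 genes and all 14 libraries, with the standard error (SE), and a gene is called at a Benjamini-Hochberg adjusted p below 0.05. The libraries' FPKM sums lay between 437879 and 497688, and replicates of a group correlated at 0.9563 to 0.9938 across genes on the log2 scale. In the HIF2A cKO diestrus library numbered 4, Mir6236 held 7.07% of the FPKM sum, against 1.05% to 2.02% for the highest gene of each other library. The diestrus libraries numbered 3 in both genotypes deviated together from their group means (r = 0.622 across genes). Epas1 averaged 41.2 ± 4.01 FPKM in HIF2A cKO and 32.9 ± 1.56 FPKM in WT at estrus (SD, n = 3 each; exact two-sided permutation p = 0.1, the smallest these groups allow). At diestrus it averaged 39.5 ± 4.44 FPKM in HIF2A cKO and 34.8 ± 5.82 FPKM in WT (SD, n = 4 each; exact two-sided permutation p = 0.257). Libraries labelled HIF2A cKO thus had no less of the targeted gene's RNA than those labelled WT. Because a conditional deletion removes part of a gene in some cells, FPKM summed over the gene can hold steady and does not check the labels, and HIF2A cKO and WT name the labels throughout.

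The tissue held the markers of uterus: no marker of the luminal and glandular epithelium, the stroma or the myometrium was at 0 in all libraries of a group. The summed FPKM of 10 epithelial markers was 1326 to 1484 in HIF2A cKO at estrus and 1054 to 1284 in WT at estrus, against 547 to 988 in HIF2A cKO at diestrus and 477 to 656 in WT at diestrus. In WT, 8 of the 10 were called higher at estrus and 1, Foxa2, lower. The 8 stromal markers summed to 1998 to 2032 and 1719 to 1905 at estrus in HIF2A cKO and WT, against 1787 to 2706 and 1986 to 2829 at diestrus. In WT, 7 of the 8 stromal markers were lower at estrus, and in HIF2A cKO 6 were lower and 1, Dcn, was higher. The 8 macrophage markers summed to 358 to 456 in HIF2A cKO and 332 to 368 in WT at estrus, and to 167 to 208 in HIF2A cKO and 187 to 254 in WT at diestrus. In whole tissue, fewer cells of a type and less RNA per cell cannot be told apart.

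Gpx1 was the most abundant of the 10 genes per unit of length, with a mean of 423 FPKM over the 14 libraries, which lay above 99.0% of the genes tested. Gpx1 encodes the widespread cytosolic and mitochondrial peroxidase. Gpx3, the secreted peroxidase known from plasma, followed with a mean of 221 FPKM, and Gpx4, which reduces lipid hydroperoxides in membranes and guards against ferroptosis, with 112 FPKM. Gpx8, bound to the membrane of the endoplasmic reticulum, had a mean of 83.3 FPKM and Gpx7, in the lumen of that compartment, 21.1 FPKM. Gpx2, known from epithelia of the gut, had 14.8 FPKM. Txnrd1, the cytosolic thioredoxin reductase, was the highest of the NRF2 targets at 63.8 FPKM. Gclc and Gclm, the catalytic and the modifier subunit of glutamate-cysteine ligase, the first enzyme of glutathione synthesis, stood close together at 17.3 and 16.2 FPKM, and Nqo1, the quinone reductase, was the lowest at 5.43 FPKM. The remaining mouse peroxidases were nearly silent: Gpx5 reached at most 0.028 FPKM, and Gpx6 was listed at 0 in 13 of the 14 libraries.

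**Figure D1:**
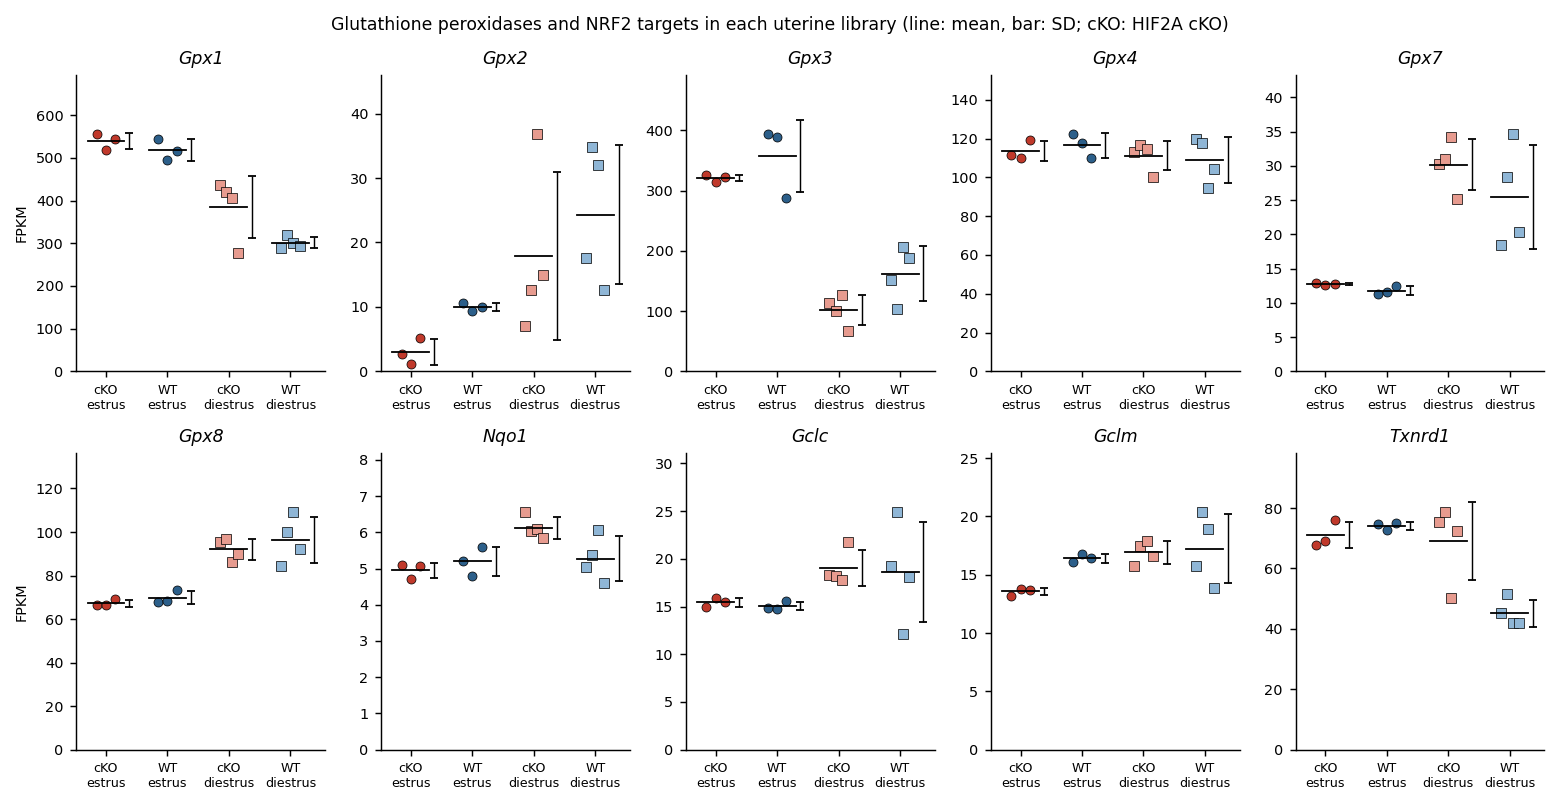
FPKM of each of the 10 genes in every library, by group; each symbol is a library, the horizontal line the group mean and the bar the SD (n = 3 at estrus, n = 4 at diestrus). Gpx1 and Gpx3 stand higher at estrus in both genotypes, Gpx7 and Gpx8 stand lower, and Txnrd1 is low in the WT diestrus libraries.

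Over the estrous cycle the family's members moved in opposite directions. In WT, Gpx1, Gpx3 and Txnrd1 were higher at estrus and Gpx7 and Gpx8 lower, so 3 of the 10 genes were called higher and 2 lower. The background in that comparison was high, since 57.2% of all genes tested were called, 23.0% higher and 34.1% lower. In HIF2A cKO, Gpx1 and Gpx3 were higher at estrus and Gpx2, Gpx7, Gpx8, Nqo1 and Gclm lower, which makes 2 of 10 higher and 5 lower, against 62.0% of all genes called, 25.5% higher and 36.5% lower. The shares called among the 10 genes, 5 of 10 and 7 of 10, were near these backgrounds. Of all genes called, 40.3% were higher at estrus in WT and 41.1% in HIF2A cKO with the FPKM as deposited, and 52.2% and 52.9% after scaling by the median of ratios; in HIF2A cKO the median difference of all genes was -0.08 as deposited and 0.03 after that scaling. The groups of libraries did not overlap for 6 of the 10 genes in WT and 8 of the 10 in HIF2A cKO, against 61.1% and 63.1% of all genes.

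Gpx3 rose most. Its FPKM was 394, 389 and 288 in the WT estrus libraries, against 151, 104, 206 and 188 in the WT diestrus libraries. In HIF2A cKO it was 325, 315 and 323 at estrus, against 114, 100.4, 127 and 67.6 at diestrus. Every estrus library stood above every diestrus library in each genotype, and the HIF2A cKO estrus libraries lay close together. The difference was 1.16 (SE 0.235) in WT and 1.68 (SE 0.235) in HIF2A cKO, with limma adjusted p of 0.00111 and 5.18e-05, and the ratio of mean FPKM was 2.20 and 3.15. In order of mean level, WT estrus at 357 FPKM and HIF2A cKO estrus at 321 FPKM did not differ beyond their spread (adjusted p = 0.968), and WT diestrus at 162 and HIF2A cKO diestrus at 102 FPKM followed.

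Gpx1 showed the same direction with less scatter in most groups. The WT estrus libraries held 545, 495 and 515 FPKM, against 289.9, 319, 301 and 293 FPKM in the WT diestrus libraries. The HIF2A cKO estrus libraries held 556, 519 and 545 FPKM, against 437, 420.5, 406 and 277 FPKM at diestrus. All estrus libraries again stood above all diestrus libraries of their genotype, and the HIF2A cKO diestrus library numbered 4, the lowest of all 14, stood apart from the other 3 of its group. Gpx1 rose by 0.78 (SE 0.131; adjusted p = 0.000294) in WT and by 0.51 (SE 0.131; adjusted p = 0.00443) in HIF2A cKO. The epithelial and macrophage marker sums moved in the same direction as Gpx1 and Gpx3. So did the median sums of neutrophil, eosinophil, mast cell, mesothelial, and T and B cell markers in both genotypes. The median sums of blood, endothelial and myometrial markers moved the other way, and that of stromal markers fell in WT only. The part of these cell types in the changes of Gpx1 and Gpx3 was not tested.

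Gpx7 and Gpx8, the peroxidases of the endoplasmic reticulum, fell at estrus. Gpx7 had 11.3, 11.6 and 12.5 FPKM in WT at estrus, against 18.4, 28.4, 34.7 and 20.3 FPKM in WT at diestrus. In HIF2A cKO it had 12.8, 12.6 and 12.7 FPKM at estrus, against 30.2, 30.9, 34.3 and 25.2 FPKM at diestrus. The estrus libraries were tightly grouped and all lay below the diestrus libraries, which scattered more widely in WT. Gpx7 fell by 1.01 (SE 0.172; adjusted p = 0.000339) in WT and by 1.18 (SE 0.172; adjusted p = 7.24e-05) in HIF2A cKO. Gpx8 had 67.9, 68.2 and 73.4 FPKM in WT at estrus, against 84.4, 100.1, 109 and 92.2 FPKM in WT at diestrus. In HIF2A cKO it had 66.3, 66.4 and 69.1 FPKM at estrus, against 95.3, 96.9, 86.3 and 90.1 FPKM at diestrus. Its fall was smaller and nearly equal in both genotypes, 0.45 (SE 0.0799) in each, with adjusted p of 0.000419 in WT and 0.00035 in HIF2A cKO. Gpx8 lies within Cdc20b on the opposite strand, but that gene reached only 0.012 FPKM. Most stromal markers fell in the same comparisons, and their part in the fall of Gpx7 and Gpx8 was not tested.

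Gpx2 was the most variable of the 10 genes, with a 33.7-fold range between its lowest and highest library. It had 10.6, 9.39 and 9.96 FPKM in WT at estrus, against 17.7, 34.9, 32.0 and 12.7 FPKM in WT at diestrus. In HIF2A cKO it had 2.75, 1.09 and 5.15 FPKM at estrus, against 7.04, 12.7, 36.8 and 15.01 FPKM at diestrus. The estrus libraries lay below the diestrus libraries in each genotype. Gpx2 fell by 2.14 (SE 0.488; adjusted p = 0.00203) in HIF2A cKO, while in WT the difference of -1.10 (SE 0.488) had an adjusted p of 0.0708. The WT difference was called when the HIF2A cKO diestrus library numbered 3 (adjusted p = 0.0293) or the WT diestrus library numbered 4 (adjusted p = 0.037) was left out. Gpx2 lies wholly within Fntb on the opposite strand, which averaged 9.63 ± 0.287, 8.99 ± 0.0972, 15.1 ± 2.54 and 11.6 ± 0.732 FPKM in HIF2A cKO estrus, WT estrus, HIF2A cKO diestrus and WT diestrus (SD). Whether the counting used strand is not given in the sources used here, so Gpx2's values are uncertain. The Gpx2 pseudogene Gpx2-ps1 reached at most 0.544 FPKM.

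Gpx4 was the steadiest peroxidase, with a 1.29-fold range over all libraries. It had 122, 118 and 109.7 FPKM in WT at estrus, against 119.9, 118, 94.5 and 104 FPKM in WT at diestrus. In HIF2A cKO it had 112, 109.8 and 119 FPKM at estrus, against 113, 117, 115 and 100.3 FPKM at diestrus. The groups overlapped in both genotypes, and the differences of 0.10 (SE 0.0875; adjusted p = 0.349) in WT and 0.03 (SE 0.0875; adjusted p = 0.772) in HIF2A cKO did not pass the test.

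Txnrd1 was higher at estrus in WT. Its FPKM was 74.6, 72.7 and 75.1 in WT at estrus, against 45.3, 51.6, 41.9 and 41.9 in WT at diestrus. In HIF2A cKO it was 67.9, 69.2 and 75.9 at estrus, against 75.4, 78.6, 50.3 and 72.4 at diestrus. The WT groups did not overlap, while 3 of the 4 HIF2A cKO diestrus libraries stood at the level of the estrus libraries and the library numbered 3 stood lower, at the level of the WT diestrus libraries. The difference was 0.71 (SE 0.13; adjusted p = 0.000555) in WT and 0.06 (SE 0.13; adjusted p = 0.727) in HIF2A cKO. The change over the cycle differed between genotypes by -0.65 (SE 0.183), with an adjusted p of 0.146 for that interaction. Without the HIF2A cKO diestrus library numbered 3 the interaction was -0.80 with an adjusted p of 0.00505. No other left-out library brought that p below 0.05.

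The other NRF2 targets moved less. Nqo1 had 5.09, 4.72 and 5.06 FPKM in HIF2A cKO at estrus, against 6.55, 6.02, 6.08 and 5.86 FPKM at diestrus, and fell by 0.26 (SE 0.0816; adjusted p = 0.0144). In WT it had 5.20, 4.80 and 5.60 FPKM at estrus, against 5.05, 5.37, 6.07 and 4.61 FPKM at diestrus, with a difference of -0.015 (adjusted p = 0.887). Gclm had 13.2, 13.8 and 13.7 FPKM in HIF2A cKO at estrus, against 15.7, 17.5, 17.9 and 16.6 FPKM at diestrus, and fell by 0.30 (SE 0.103; adjusted p = 0.0228). In WT it had 16.0, 16.8 and 16.4 FPKM at estrus, against 15.8, 20.4, 18.9 and 13.8 FPKM at diestrus, and the difference of -0.05 had an adjusted p of 0.688. The HIF2A cKO groups of Nqo1 and Gclm did not overlap, whereas the WT groups did. Both falls in HIF2A cKO rested on the scaling: after median-of-ratios scaling Nqo1 had -0.15 (adjusted p = 0.141) and Gclm -0.17 (adjusted p = 0.149). The call of Nqo1 was also lost without the HIF2A cKO estrus library numbered 2 (adjusted p = 0.0588), and that of Gclm without the HIF2A cKO estrus libraries numbered 1 (adjusted p = 0.0693) or 4 (adjusted p = 0.051) or the HIF2A cKO diestrus library numbered 2 (adjusted p = 0.0503). Gclc had 14.97, 15.9 and 15.5 FPKM in HIF2A cKO at estrus, against 18.3, 18.2, 17.7 and 21.8 FPKM at diestrus. In WT it had 14.9, 14.7 and 15.6 FPKM at estrus, against 19.3, 24.9, 12.1 and 18.1 FPKM at diestrus. The WT diestrus library numbered 3 was the lowest of all 14 for Gclc. Gclc's differences of -0.28 in HIF2A cKO (adjusted p = 0.159) and -0.25 in WT (adjusted p = 0.215) did not pass the test; without that library they were -0.28 (adjusted p = 0.0278) and -0.43 (adjusted p = 0.00504).

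**Figure D2:**
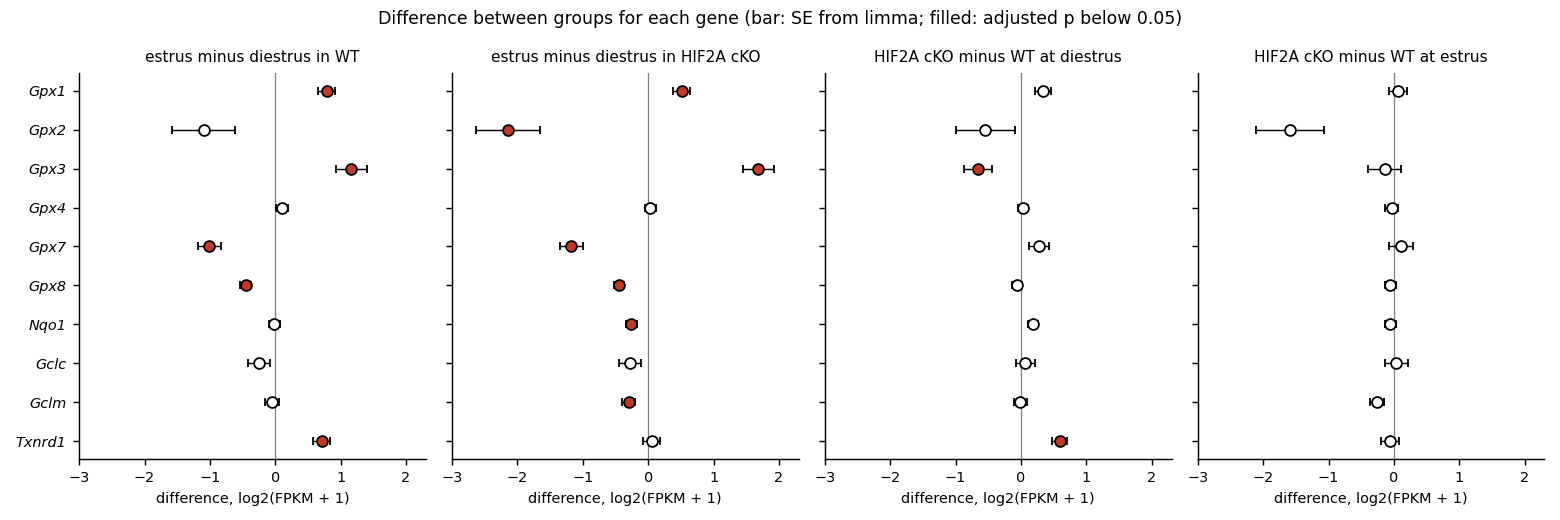
Difference on the log2(FPKM + 1) scale for each gene in 4 comparisons; bars are the SE from limma and filled points have an adjusted p below 0.05. The cycle panels hold filled points on both sides of 0 (3 higher and 2 lower in WT, 2 higher and 5 lower in HIF2A cKO), the diestrus panel holds Txnrd1 above 0 and Gpx3 below it, and the estrus panel holds none.

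The make-up of the family's transcripts changed with these opposite movements. The summed FPKM of the 6 peroxidases was 1058 ± 29.6 in HIF2A cKO and 1083 ± 71.3 in WT at estrus, against 738 ± 110 in HIF2A cKO and 719 ± 41.2 in WT at diestrus (SD, n = 3 and 4). Gpx3 made up 30.4% ± 0.342 of that sum in HIF2A cKO and 32.8% ± 3.76 in WT at estrus, against 13.7% ± 1.72 in HIF2A cKO and 22.5% ± 5.51 in WT at diestrus. Gpx7 made up 1.20% and 1.09% at estrus in HIF2A cKO and WT, against 4.10% and 3.51% at diestrus, and Gpx8 made up 6.36% and 6.48%, against 12.7% and 13.4%. Gpx1 held 51.1% and 47.9% at estrus, against 51.9% and 42.0% at diestrus. Shares of a sum are not independent of each other.

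**Figure D3:**
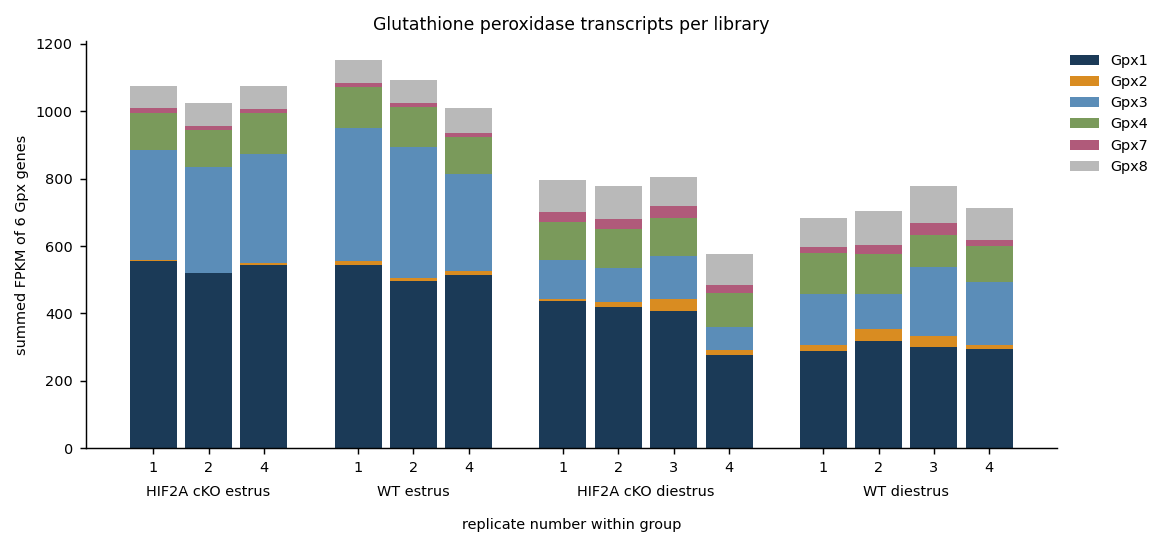
Summed FPKM of the 6 glutathione peroxidases in each library, stacked by gene, with libraries grouped by genotype and stage. The estrus libraries reach 1009 to 1151 and the diestrus libraries 575 to 805, and the Gpx1 and Gpx3 layers are both taller at estrus.

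At diestrus, Txnrd1 was higher and Gpx3 lower in HIF2A cKO, so 1 of the 10 genes was called higher and 1 lower, against 23.9% of all genes tested, 13.8% higher and 10% lower. Of all genes called in that comparison, 58.0% were higher as deposited and 47.9% after median-of-ratios scaling. Txnrd1 averaged 69.2 ± 12.9 FPKM in HIF2A cKO and 45.2 ± 4.56 FPKM in WT (SD, n = 4 each), a difference of 0.59 (SE 0.12; adjusted p = 0.00709). The lowest HIF2A cKO library, 50.3 FPKM, overlapped the highest WT library, 51.6 FPKM. Gpx3 averaged 102 ± 25.3 FPKM in HIF2A cKO and 162 ± 45.0 FPKM in WT (SD, n = 4 each), a difference of -0.66 (SE 0.218; adjusted p = 0.0454), and these groups overlapped too. No member's groups were free of overlap here, against 15.8% of all genes. Of the markers in the same comparison, Elf3 was higher (1.71) and Foxa2 lower (-1.61) among the 10 of the epithelium, 1 was higher and 2 lower among the 8 of the stroma, 3 of the 5 tested mast cell markers were lower and none of the macrophage or myometrial markers was called. Their part in the values of Txnrd1 and Gpx3 was not tested.

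The diestrus comparison depended on which libraries were fitted. At diestrus the deviations of libraries with the same number correlated at r = 0.115 to 0.622 over 4 pairs, highest for the libraries numbered 3. Deviations from a group mean are tied within a group, so the other pairs do not show by themselves that their libraries deviated together. With replicate number as a block and all 14 libraries fitted, 4781 genes and the same 2 members were called, with adjusted p of 0.00213 for Txnrd1 and 0.025 for Gpx3. When only the 8 diestrus libraries were fitted, without the block, 401 genes and none of the 10 members were called, against 3410 genes with all libraries, and the adjusted p was 0.0577 for Txnrd1 and 0.131 for Gpx3. With the block added to that fit of 8 libraries, 2034 genes were called, and the adjusted p was 0.0287 for Txnrd1 and 0.0946 for Gpx3. As each of the 14 libraries was left out in turn, Txnrd1 stayed called, with adjusted p of 0.000137 to 0.0282. Gpx3 stayed called only without the HIF2A cKO diestrus library numbered 3 or the WT diestrus library numbered 2, and its adjusted p ran between 0.00862 and 0.113. Without the HIF2A cKO diestrus library numbered 4, Gpx1 was also called higher, by 0.48 (adjusted p = 0.00171), where with all libraries it had 0.33 (adjusted p = 0.0618). That library's share of FPKM in Mir6236 stands above, and its part in the low Gpx1 value was not tested. The remaining 7 members had differences between -0.55 and 0.27, none called. Without the WT diestrus library numbered 3, Nqo1 (adjusted p = 0.0331) and Gpx7 (adjusted p = 0.0394) were called higher in HIF2A cKO.

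At estrus none of the 10 genes was called between HIF2A cKO and WT, as was true of nearly all genes: 0.105% were called, 0.0700% higher and 0.0350% lower. That fit shares 1 spread over all 14 libraries, and replicates correlated at 0.9891 to 0.9935 at estrus and 0.9563 to 0.9938 at diestrus. With library weights, 1331 genes were called at estrus, among them Gpx2 (limma adjusted p = 0.013) and Gclm (limma adjusted p = 0.0241). The few calls therefore do not show that the genotypes were alike at estrus. By limma without adjustment, 2 of the 10 had a p below 0.05, Gpx2 and Gclm. The Gpx2 libraries of HIF2A cKO, at 1.09 to 5.15 FPKM, all lay below those of WT, at 9.39 to 10.6 FPKM, with a difference of -1.59 (SE 0.522; adjusted p = 0.479). Gclm averaged 13.6 ± 0.304 FPKM in HIF2A cKO and 16.4 ± 0.37 FPKM in WT (SD, n = 3 each), a difference of -0.26 (SE 0.11; adjusted p = 0.638), again without overlap. Gpx7 did not overlap either, at 12.6 to 12.8 FPKM in HIF2A cKO and 11.3 to 12.5 FPKM in WT, so 3 of 10 genes were free of overlap, against 26.4% of all genes. Fitted on the 6 estrus libraries alone, Gclm was among the 332 genes called (adjusted p = 0.0418), but not with the replicate block added. For the difference between the genotypes' cycle changes none of the 10 was called, against 0.0350% of all genes, 0.0140% higher and 0.0210% lower, and Txnrd1 alone had an unadjusted limma p below 0.05.

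Around these 10 genes, 9 lists of redox genes were described. The lists were chosen with earlier results of these data known, so their shares beside those of all genes are descriptions and not tests. The first list, called the NRF2 regulators here, holds NRF2, its relatives and partners, and genes that act on it, such as Keap1. Counts by direction over this list do not measure NRF2 activity. In WT, 9 of 12 were called higher at estrus and 1 lower, with a median difference of 0.61 beside -0.09 for all genes. Of all genes, 23.0% were called higher and 34.1% lower there. In HIF2A cKO, 7 were higher and 2 lower (median 0.58 beside -0.08). Nfe2l2 averaged 90.5 ± 1.29 FPKM in HIF2A cKO and 86.5 ± 2.57 FPKM in WT at estrus, against 58.0 ± 1.67 and 58.9 ± 2.23 FPKM at diestrus (SD). Its change was 0.63 (adjusted p = 5.83e-07) in HIF2A cKO and 0.55 (adjusted p = 3.15e-06) in WT. Nfe2l3, a relative of NRF2, was at 26.3 ± 0.866 FPKM at estrus and 6.36 ± 3.18 FPKM at diestrus in WT, and Maff, a small MAF protein that dimerizes with NRF2, at 11.6 ± 1.38 and 2.71 ± 0.642 FPKM. Keap1 averaged 20.9 ± 1.83 FPKM in HIF2A cKO and 19.0 ± 0.374 FPKM in WT at estrus, against 24.3 ± 0.808 and 20.9 ± 0.593 FPKM at diestrus (SD). It was called lower at estrus in HIF2A cKO (-0.21, adjusted p = 0.00778), a call lost under both other scalings, and higher at diestrus in HIF2A cKO than in WT (0.21, adjusted p = 0.0193). The second call was lost with quantile normalization (adjusted p = 0.0724) and when only the 8 diestrus libraries were fitted (adjusted p = 0.0677), and kept with the block over all libraries (adjusted p = 0.0166).

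The other NRF2 targets were called in both directions. Of all genes, 23.0% were called higher and 34.1% lower at estrus in WT, and 25.5% and 36.5% in HIF2A cKO. These shares also stand behind the cycle counts of the lists that follow. In WT, 7 of 21 were higher and 2 lower at estrus (median 0.12), and in HIF2A cKO 8 were higher and 4 lower (median 0.08); after median-of-ratios scaling 11 were higher in WT. Me1, malic enzyme, was higher in WT, at 20.6 ± 1.78 FPKM at estrus and 7.72 ± 2.46 FPKM at diestrus (1.36, adjusted p = 0.00103). Akr1b8, an aldo-keto reductase, was lower, at 9.17 ± 0.928 and 20.7 ± 5.30 FPKM (-1.07, adjusted p = 8.08e-05). Of the 16 genes of glutathione synthesis, recycling and breakdown, 5 were higher and 4 lower in WT (median 0.02), and 4 higher and 7 lower in HIF2A cKO, where the median of -0.11 turned to 0.0045 with quantile normalization and 0.0257 with median-of-ratios scaling. Gsr, which regenerates glutathione, was at 60.8 ± 5.69 FPKM at estrus and 34.6 ± 8.63 FPKM at diestrus in WT (0.82, adjusted p = 0.0021). Ggt5, a gamma-glutamyltransferase, was at 64.7 ± 1.27 and 16.3 ± 9.62 FPKM (2.12, adjusted p = 0.00152).

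Glutathione S-transferases, which conjugate glutathione to electrophiles, split by the cycle. Of the 17 tested of 22 listed, 7 were higher and 6 lower at estrus in WT (median -0.13), and 8 higher and 6 lower in HIF2A cKO (median 0.37), the 6 becoming 3 after median-of-ratios scaling. In WT these were 41.2% higher and 35.3% lower, against 23.0% and 34.1% of all genes. In HIF2A cKO they were 47.1% and 35.3%, against 25.5% and 36.5%. Gstt2 was at 88.9 ± 7.56 FPKM at estrus and 13.05 ± 3.67 FPKM at diestrus in WT (2.71, adjusted p = 3.34e-07), while Gstm7 was at 23.5 ± 7.24 and 202 ± 106 FPKM (-2.85, adjusted p = 0.000349). At diestrus none was called higher in HIF2A cKO and 8 of 17 were lower, or 47.1%, against 10% of all genes, with a median of -0.51 beside 0.02 for all genes. The 8 became 4 without the HIF2A cKO diestrus library numbered 1 and 3 without the one numbered 2, and lay at up to 11 with another library left out. Calls over all genes moved too: 3410 became 1764 without the first of these libraries and 1489 without the second. They reached up to 5028 with another library left out. Gstm7 was at 54.9 ± 26.8 FPKM in HIF2A cKO and 202 ± 106 FPKM in WT (-1.72, adjusted p = 0.0182), and Gstm6 at 1.42 ± 0.686 and 6.04 ± 2.86 FPKM (-1.48, adjusted p = 0.00719). Gstm1, also an NRF2 target, was at 141 ± 80.4 and 270.0 ± 61.3 FPKM (-1.05, adjusted p = 0.0168), and Gsta4 at 23.6 ± 10.7 and 42.7 ± 8.61 FPKM (-0.92, adjusted p = 0.0216). The Gstm genes are close paralogs, so reads may be split between them. With the block over all libraries 9 of the 17 were lower. Fitted on the 8 diestrus libraries alone 2 were, and with the block added to that fit 6 were. Gstm7 and Gsta4 were called in neither of the fits of 8 libraries. Over all genes, 4781 were called with the block over all libraries. The 8 diestrus libraries gave 401 without the block and 2034 with it.

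Enzymes that make superoxide or hydrogen peroxide, the substrates of the dismutases and peroxidases, were called in a single direction. Of 12 tested of 18 listed, 8 were higher and none lower at estrus in WT, and 9 and none in HIF2A cKO, with medians of 0.80 and 0.84. Of all genes, 23.0% were called higher and 34.1% lower in WT, and 25.5% and 36.5% in HIF2A cKO. Aoc1, a diamine oxidase that releases hydrogen peroxide, was at 209 ± 51.9 FPKM at estrus and 2.98 ± 3.35 FPKM at diestrus in WT (6.03, adjusted p = 2.63e-06). Xdh, xanthine dehydrogenase, was at 42.9 ± 2.41 and 10.3 ± 2.22 FPKM (1.98, adjusted p = 3.33e-07). Among 16 thioredoxins, peroxiredoxins, superoxide dismutases and catalase, 4 were higher and 5 lower in WT, where the median of -0.02 became 0.08 after median-of-ratios scaling, and 2 higher and 7 lower in HIF2A cKO (median -0.17). Txnip, an inhibitor of thioredoxin, was at 489 ± 17.2 FPKM at estrus and 176 ± 26.7 FPKM at diestrus in WT (1.48, adjusted p = 6.42e-06). Prdx4, the peroxiredoxin of the endoplasmic reticulum, was at 48.8 ± 1.96 and 76.9 ± 4.70 FPKM (-0.64, adjusted p = 5.98e-05).

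The list of oxidative protein folding in the endoplasmic reticulum, the compartment of Gpx7 and Gpx8, had 3 of 10 genes higher and 5 lower at estrus in WT (median -0.42) and 2 higher and 7 lower in HIF2A cKO (median -0.75). Of all genes, 23.0% were called higher and 34.1% lower in WT, and 25.5% and 36.5% in HIF2A cKO. Pdia5, a protein disulfide isomerase, was at 8.48 ± 0.958 FPKM at estrus and 18.7 ± 4.96 FPKM at diestrus in WT (-1.02, adjusted p = 0.000206). Qsox1, a sulfhydryl oxidase, went against it, at 152 ± 24.3 and 50.3 ± 14.1 FPKM (1.61, adjusted p = 9.81e-05). Other selenoproteins had 1 of 17 higher and 6 lower in WT (median -0.24), with 3 lower after median-of-ratios scaling, and 1 higher and 10 lower in HIF2A cKO (median -0.44). The share lower was 35.3% in WT, near the 34.1% of all genes, and 58.8% in HIF2A cKO, beside 36.5%. The higher gene was Sepp1, selenoprotein P, which carries selenium between tissues, at 822 ± 9.73 FPKM at estrus and 344 ± 82.4 FPKM at diestrus in WT (1.29, adjusted p = 7.68e-05). The Selenoh gene, listed as 2700094K13Rik, was at 23.6 ± 2.64 and 44.2 ± 5.29 FPKM (-0.88, adjusted p = 4.79e-05). Of 10 genes of selenocysteine insertion, 1 was higher and 3 lower in WT, where the median of -0.03 turned to 0.02 with quantile normalization and 0.07 with median-of-ratios scaling, and 2 higher and 6 lower in HIF2A cKO (median -0.25), with 3 lower after median-of-ratios scaling. Pstk, the kinase that prepares the selenocysteine tRNA, was at 8.79 ± 0.205 and 15.5 ± 0.680 FPKM (-0.75, adjusted p = 1.73e-05), and Trnau1ap, which binds that tRNA, at 19.5 ± 0.556 and 28.2 ± 3.50 FPKM (-0.50, adjusted p = 0.000489).

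At diestrus the remaining lists were called between HIF2A cKO and WT at shares from 16.7% in the oxidant-making enzymes to 40.0% in selenocysteine insertion, beside 23.9% of all genes. NRF2 regulators had 3 higher and none lower (median 0.06), the other targets 6 and 2 (median 0.16), and glutathione synthesis 2 and 1 (median 0.21). The 3 regulators were Keap1, Mafg and Nfe2l1. Thioredoxins and their partners had 4 higher and 2 lower (median 0.12), selenocysteine insertion 2 and 2 (median 0.11), and the other selenoproteins 3 and 2 (median 0.18). Oxidative folding had 3 higher and none lower (median 0.27), and the oxidant-making enzymes 1 and 1 (median -0.09). With the block over all libraries, 3 regulators, 8 other targets, 7 selenoproteins and 4 genes of oxidative folding were called higher. Fitted on the 8 diestrus libraries alone, without the block, 1 regulator, 1 gene of the thioredoxin list and 1 selenoprotein were called higher and no gene of these lists lower. Over all genes, 4781 were called with that block and 401 with the 8 libraries alone, against 3410 with all libraries and no block. Single libraries also moved the counts: as each was left out, the genes called higher ran from 1 to 9 among the other targets, 1 to 4 in glutathione synthesis, 2 to 7 among the thioredoxins, 2 to 8 among the selenoproteins and 0 to 6 in oxidative folding. Calls over all genes, in either direction, ran from 1489 to 5028 in the same fits. Each of these 5 lists had its lowest count without the HIF2A cKO diestrus library numbered 1 and without the one numbered 2. WT libraries gave the same lowest counts in places. Without the WT diestrus library numbered 1 this held for oxidative folding and the thioredoxins, and without the one numbered 4 for oxidative folding.

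Sod3, the extracellular superoxide dismutase, was at 16.0 ± 5.18 FPKM in HIF2A cKO and 5.26 ± 1.37 FPKM in WT (1.42, adjusted p = 0.00284), and Mafg, a small MAF protein, at 20.2 ± 1.20 and 14.7 ± 0.552 FPKM (0.43, adjusted p = 0.00255). Both kept their calls with the block over all libraries, with the 8 diestrus libraries alone and with any library left out. Dio2, a deiodinase and selenoprotein, was at 112 ± 9.004 FPKM in HIF2A cKO and 54.0 ± 20.2 FPKM in WT (1.12, adjusted p = 0.00688), Sepp1 at 203 ± 32.5 and 344 ± 82.4 FPKM (-0.74, adjusted p = 0.0101) and Gsr at 55.4 ± 10.9 and 34.6 ± 8.63 FPKM (0.67, adjusted p = 0.0154). These 3 were not called with the 8 diestrus libraries alone, with adjusted p of 0.0556, 0.0682 and 0.0791. Glrx5, a mitochondrial glutaredoxin, at 52.1 ± 4.76 and 40.1 ± 3.85 FPKM (0.37, adjusted p = 0.00745), was not called there either. Aoc1, at 9.22 ± 5.63 and 2.98 ± 3.35 FPKM (1.52, adjusted p = 0.0436), lost its call in that fit, with no filter, without each of 11 single libraries (adjusted p up to 0.128) and with a pseudocount of 5, where the difference was 0.83. Another 6 named genes were called in the fit over all libraries and lost their calls with the 8 diestrus libraries alone, with or without the block: Nfe2l1, a relative of NRF2, at 68.8 ± 3.75 and 58.7 ± 2.26 FPKM, Txnip at 129.9 ± 23.8 and 176 ± 26.7 FPKM, Pstk at 12.1 ± 1.69 and 15.5 ± 0.680 FPKM, Sepsecs, which makes selenocysteine on its tRNA, at 5.58 ± 0.594 and 4.60 ± 0.237 FPKM, Pdia6 at 218 ± 53.8 and 135 ± 35.3 FPKM, and Pdia5 at 25.3 ± 3.03 and 18.7 ± 4.96 FPKM. With the block over all libraries, Sepsecs (adjusted p = 0.0548) and Pdia5 (adjusted p = 0.052) were not called. Calls were lost without each of 12 single libraries for Sepsecs, 11 for Pdia5, 6 for Txnip, 4 for Pdia6 and Gstm7, 3 for Gsta4, and 2 for Gsr, Gstm1 and Keap1. At estrus no gene of the 9 lists was called in the fit over all libraries. Fitted on the estrus libraries alone, 2 glutathione S-transferases were called higher and 1 lower, 1 oxidant-making enzyme higher and 1 NRF2 regulator lower. Several genes, such as Gsr, Gstm1 and Prdx4, stand in more than 1 list.

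**Figure D4:**
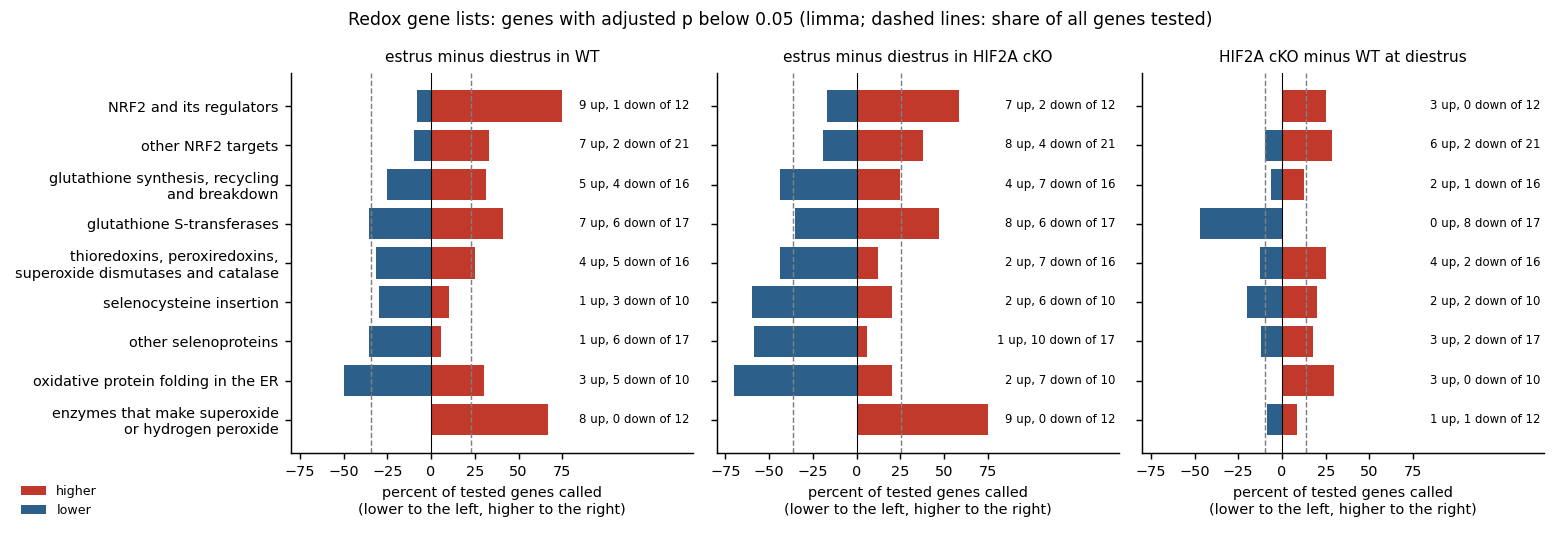
Percent of the tested genes of each of 9 redox lists called higher (red, to the right) or lower (blue, to the left), in 3 comparisons; dashed lines are the share of all genes tested that was called in that direction, and the counts stand at the right. The NRF2 regulators, the other targets, the glutathione S-transferases and the oxidant-making enzymes extend past the line for higher genes in both cycle panels. At diestrus the glutathione S-transferases reach 47.1% lower, and selenocysteine insertion, the thioredoxins and the selenoproteins also pass the line for lower genes. These last 3 lists, oxidative folding, the other targets and the NRF2 regulators pass the line for higher genes there.

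For the 3 members with the largest change over the cycle in WT, the genes with the most similar pattern were sought among 10313 genes averaging at least 5 FPKM over the libraries, by the root mean square difference of log2 values centred on each gene's own mean over the 14 libraries. Gpx3 was closest to Tcp11l2 (0.189), Phyhd1 (0.207) and Ypel3 (0.218), where Gpx3's own values spread by 0.801 about their mean. Ypel3 averaged 123 and 122 FPKM at estrus in HIF2A cKO and WT, against 31.3 and 48.1 FPKM at diestrus. Gpx7 had nearer neighbours, Fkbp9 (0.096), Ccdc8 (0.098) and Thbs3 (0.107), beside its own spread of 0.589. Fkbp9, a peptidyl-prolyl isomerase of the endoplasmic reticulum, averaged 58.8 and 53.0 FPKM at estrus, against 139 and 125 FPKM at diestrus. Gpx2 had no near neighbour: Hopx (0.585), Krt23 (0.604) and Arg2 (0.612) were the closest, beside its own spread of 1.15. These values are descriptions over 14 libraries that share group and depth.

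The promoters of 9 of the 10 genes were found in RefSeq's table for GRCm38.p6, as 300 bases that run from 250 before to 50 after the start site, and were searched on both strands for TGACNNNGC, a core of the antioxidant response element, and ACGTG, the core of the hypoxia response element. The first was found in 2 of the 9 genes, Gclm and an alternative promoter of Txnrd1, and in 13.99% of the 27025 genes with a promoter in the table. The second was found in 3 of the 9, Gpx1, Gpx8 and Gclm, and in 21.8% of all genes. The matches are shown because the hypoxia response element bears on the study's question and the antioxidant response element on the gene set. Capitals mark the motif, and each match is written along the gene's own strand with its position from the start site.
Gclm, TGACNNNGC on the opposite strand at -134 to -126, chr3:122245415-122245439: tcccgggcGCACCGTCAactctcac
Txnrd1, TGACNNNGC on the opposite strand at -92 to -84, chr10:82859106-82859130: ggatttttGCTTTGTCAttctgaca
Gpx1, ACGTG on the same strand at -183 to -179, chr9:108338889-108338909: gactagaaACGTGtgggtaaa
Gpx8, ACGTG on the opposite strand at -171 to -167, chr13:113046547-113046567: agtgcagcCACGTtaacaatt
Gclm, ACGTG on the opposite strand at -67 to -63, chr3:122245482-122245502: agggggcgCACGTccgcgcgc
A match describes letters in this window only.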

How the data were processed

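RNA-seq libraries of 14 uterus samples were analysed from a single table of FPKM values, which the authors deposited with 3 decimals; FPKM is normalized for transcript length and library size. Per the labels' protocols, total RNA was purified on RNeasy columns, treated with DNase there and turned into libraries by the TruSeq method of Illumina. TopHat2 2.0.4, Cufflinks 2.0.2 and the mm10 build are named in the submitters' processing notes; whether counting used strand is not known here. The table holds no counts, so depth in reads is unknown: the steps between low values gave relative depths for 10 libraries, from 1.0 to 1.899, and no interval was computed. Among these 10, the estrus libraries lay at 1.0 to 1.136 and most diestrus libraries at 1.413 to 1.899. The HIF2A cKO diestrus library numbered 3 lay at 1.047. Depth and stage thus largely ran together in these libraries, and the part of depth in the differences was not tested.

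Values were transformed as log2(FPKM + 1), with a pseudocount of 1, over genes of at least 1 FPKM in at least 3 libraries. The 11 genes listed at 0 in a whole group but averaging at least 50 FPKM in another were left out. limma 3.58.1 in R 4.3.3 fitted 1 mean per group over all 14 libraries, with a trend and Benjamini-Hochberg adjustment over the 14278 genes. The fit was run on simulated data with independent noise and 1 spread per gene. That check did not cover unequal spread between groups or libraries that deviate together. The deviations of libraries of the same number from their group means correlated at 0.115 to 0.622 between genotypes at diestrus. In the other comparisons these correlations ran from -0.135 to 0.0958. The labels do not say what a number shares, so whether it pairs libraries is not known. The genes named beside the members are, of each list, the 2 called genes with the largest difference and at least 5 FPKM. The members and lists were chosen with earlier results of these data known. Alternatives covered the pseudocount, filter, scaling, libraries fitted, weights, block and each library left out; leaving out both diestrus libraries numbered 3, and every alternative for the lists, were added after seeing the data.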

Additional observations from a re-analysis of the deposited data

Results flagged for a closer look

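In the 4 HIF2A cKO diestrus libraries, Gclc in the library numbered 4 stood at 21.793 FPKM (21.8), while the other 3 lay between 17.7 and 18.3 FPKM. Its gap to the nearest library was 0.859 of the group's range, above Dixon's 95% critical value of 0.829 for 4 samples. In all, 20 groups of 4 libraries were examined in this way, and chance flags about 1 in 20.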

How the results depend on the processing

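Over settings other than a left-out library, member differences kept their direction and call in 617 of the values recomputed, became called in 26, lost a call in 7 and changed sign in 30; no called member changed sign. With quantile normalization the sign changed for Nqo1 (0.0442) and Gclm (0.0086) over the cycle in WT, Gpx4 at diestrus (-0.1096), Gpx1 at estrus (-0.0681) and the interaction of Gpx4 (0.0329). With median-of-ratios scaling it changed for Nqo1 (0.074) and Gclm (0.0487) in WT and Gpx4 at diestrus (-0.0096). With library weights it changed for Nqo1 (0.0486) and Gclm (0.0842) in WT, Gpx4 (-0.0153) and Txnrd1 (-0.1058) in HIF2A cKO, Gpx8 (0.0907), Gclc (-0.0198), Gclm (0.1033) and Nfe2l2 (0.039) at diestrus, and the interactions of Gpx8 (-0.1561) and Gclc (0.047). Without both diestrus libraries numbered 3, an alternative chosen after seeing the data, it changed for Nqo1 in WT (0.0441), Txnrd1 in HIF2A cKO (-0.0876), Gpx4 (-0.0511), Gpx8 (0.0311), Gclc (-0.0818), Gclm (0.0091) and Nfe2l2 (0.0007) at diestrus, and the interactions of Gpx4 (0.0148), Gpx8 (-0.0842) and Gclc (0.1183). With the replicate block over all libraries it changed for Nqo1 in WT (0.013) and Txnrd1 in HIF2A cKO (-0.0321), and with the block over the libraries compared for the same differences (0.0441 and -0.0876). The cause of these changes was not tested.

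The counts moved more. Members called at diestrus, 2, became 1 with no filter, 0 with only the libraries compared, 1 with the replicate block there and 5 with weights; genes called, 3410, became 401, 2034 and 7885 under the last 3. At estrus, 15 genes became 7 and 26 with pseudocounts of 0.1 and 5, 26 with no filter, 0 with a filter of 5 FPKM, 23 with quantile normalization, 332 with only the libraries compared, 1331 with weights, 138 with the block and 64 without both libraries numbered 3; members called were 1 with only the libraries compared and 2 with weights. For the interaction, 5 genes became 8 with a pseudocount of 0.1, 11 with no filter, 10 with quantile normalization, 5225 with weights, 462 with the block, 12 with the genes at 0 kept and 1194 without both libraries numbered 3; members called were 5, 1 and 1 with weights, the block and without both libraries. The cause was not tested. The block over all libraries changed no member's call between genotypes at diestrus; added to the fit of the 8 diestrus libraries, which calls no member without it, it called Txnrd1. In the other comparisons libraries of the same number correlated at -0.135 to 0.0958. There the block over all libraries called Gclc in both cycles (adjusted p = 0.0442 in WT and 0.0291 in HIF2A cKO) and the interaction of Txnrd1 (-0.65, adjusted p = 0.0411).

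As each library was left out, genes called ran from 6984 to 8601 in the WT cycle, 7885 to 9059 in the HIF2A cKO cycle, 1489 to 5028 at diestrus, 1 to 30 at estrus and 1 to 1181 for the interaction, and members called from 5 to 6, 6 to 8, 1 to 3, 0 to 0 and 0 to 1. The diestrus count was lowest without the HIF2A cKO library numbered 2 and also under 3410 by more than 1.5 times without the HIF2A cKO library numbered 1 (1764) and the WT libraries numbered 1 (2080) and 4 (2205); the interaction count was highest without the HIF2A cKO diestrus library numbered 3. Uncalled differences whose sign changed ran from -0.1452 to 0.0297 (Gclm) and -0.0669 to 0.0441 (Nqo1) in WT, from -0.0166 to 0.0558 (Gpx4) and -0.0876 to 0.1243 (Txnrd1) in HIF2A cKO, from -0.112 to 0.2149 (Gclc), -0.1053 to 0.0696 (Gclm), -0.0349 to 0.0797 (Gpx4) and -0.1218 to 3e-04 (Gpx8) at diestrus, and from -0.1783 to 0.1485 (Gclc) and -0.0534 to 0.0688 (Gpx8) for the interaction. The read depth behind the FPKM values is unknown, so no limit is given for genes near 0.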
